A study of Mus musculus with 28 samples.

Results

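A set of 8 genes of the LIF and JAK-STAT pathway was followed in cultured mouse cells, of 9951 genes that could be measured. They were the receptor chain genes Lifr and Il6st, the kinase genes Jak1 and Jak2, the transcription factor gene Stat3, and Socs2, Socs3 and Cish, which encode inhibitors of the SOCS family. All probes whose symbol in the array's annotation was one of the 8 names were taken, and these came to 19 probes, of which 15 passed a filter on dim probes. Socs3 was selected on its values, because its level differed between cells given Cripto with and without the inhibitor SB431542. Its levels on those arrays are therefore a description with no test. The cells were Xen-eyfp cells, a line of extraembryonic endoderm stem cells, which come from the primitive endoderm of the blastocyst. They were kept for 96 h in medium alone (Media), with 50 ng/ml recombinant Nodal, with 100 ng/ml recombinant Cripto, with SB431542, with Nodal and SB431542, or with Cripto and SB431542. Nodal belongs to the TGF-beta family of ligands, Cripto is a cell-surface protein known as a co-receptor of Nodal and given here as recombinant protein, and SB431542 blocks the receptor kinase Alk4. The dose of SB431542 is not given in the labels. Each group had 5 arrays, apart from Nodal with SB431542, which had 3. All arrays came from 1 cell line, and whether arrays of a group came from separate cultures is not stated. The p-values therefore cover only the spread among these arrays, which may be technical.

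Cytokines of the interleukin-6 family, LIF among them, bind receptor complexes that share the signalling chain gp130, the product of Il6st. For LIF the partner chain is the LIF receptor, the product of Lifr. The receptor chains carry JAK kinases, which phosphorylate STAT proteins, and the STAT dimers move to the nucleus and bind DNA. Socs3, Socs2 and Cish are transcribed in answer to STAT proteins and their products damp the pathway, so their transcripts are widely used as readouts of cytokine signalling. In mouse embryonic stem cells LIF acting through STAT3 sustains self-renewal.

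STAT dimers recognise a palindrome, written TTCNNNGAA, in which N is any base. The promoters of Cish and Socs3 are shown because these were the only 2 of the 7 members with a promoter in the RefSeq table used that held this motif. Each window runs from 250 bases before to 50 bases after the annotated start on build GRCm38.p6, and capitals mark the motif. The Cish window is chr9:107296409-107296708 on the plus strand, and the Socs3 window is chr11:117969317-117969616 on the minus strand. Both are written 5′ to 3′ in the direction of transcription.
Cish: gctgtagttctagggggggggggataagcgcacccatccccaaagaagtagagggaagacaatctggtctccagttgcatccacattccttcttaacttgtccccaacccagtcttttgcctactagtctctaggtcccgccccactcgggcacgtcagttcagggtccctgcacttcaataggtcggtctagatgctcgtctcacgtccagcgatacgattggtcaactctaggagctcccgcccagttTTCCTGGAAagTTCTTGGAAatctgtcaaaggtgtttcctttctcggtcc
Socs3: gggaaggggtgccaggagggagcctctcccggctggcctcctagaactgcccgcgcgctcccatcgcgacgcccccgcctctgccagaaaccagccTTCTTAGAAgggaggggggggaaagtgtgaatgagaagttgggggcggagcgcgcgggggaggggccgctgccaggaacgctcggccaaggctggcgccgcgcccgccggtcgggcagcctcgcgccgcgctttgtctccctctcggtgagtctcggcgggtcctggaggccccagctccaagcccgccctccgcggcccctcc
The Cish window held 2 matches, TTCCTGGAA at bases 1 to 9 after the start and TTCTTGGAA at bases 12 to 20. The Socs3 window held 1 match, TTCTTAGAA at positions -154 to -146. The motif is its own reverse complement, so a match counts for both strands, and the matches did not overlap. Among all 32851 promoter windows in the table, 2726 (8.3%) held the motif, and 150 (0.457%) held it 2 or more times. The windows of Lifr, Il6st, Jak1, Jak2 and Stat3 held no match, and Socs2 had no promoter in the table. A match describes the letters in the window, not binding.

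Levels are normalised log2 intensities, from which fitted log2 changes with limma's standard error (SE) were taken. The BeadChip, the slide that carries several arrays and of which there were 7, was a term in the fit. A gene was called at an adjusted p below 0.05 (Benjamini-Hochberg, over 18471 probes), and where several probes passed the filter the one with the highest mean stood for the gene. The mean signal of an array ranged from 183.8 to 995 intensity units. It ranged from 183.8 to 545.9 in Media, 195.9 to 658.2 with SB431542, 340.6 to 905.9 with Nodal, 439.8 to 629.1 with Nodal and SB431542, 321.1 to 995 with Cripto and 639.3 to 875.2 with Cripto and SB431542. Between 13191 and 16183 probes per array were detected, that is, had a detection p below 0.01. Median centring, an alternative scaling given below, shifted each array to a common median over all 45281 probes, most of which were not detected. In bulk samples, fewer cells of a type and less RNA per cell cannot be told apart. All 8 markers of extraembryonic endoderm, such as Gata6, Sox17 and Dab2, were detected on all 28 arrays, and none of 5 fibroblast markers was detected on any. Of 5 pluripotency markers, Pou5f1 was detected on 26 arrays, Zfp42 on 21, Esrrb on 1 and Nanog and Sox2 on 0, and of 3 leukocyte markers Csf1r was detected on 26 and Ptprc and Itgam on 0. Of 5 trophoblast markers, Cdx2 and Krt7 were the 2 detected on each Cripto array and each array of Cripto with SB431542, while 0 were detected on Media or SB431542 arrays. On each array of Nodal, and of Nodal with SB431542, 0 or 1 was detected. The summed trophoblast signal, not scaled between arrays, was 401.5 to 691.2 in Media, 438.7 to 988.6 with Nodal and 506.4 to 1045 with Cripto. With SB431542 it was 405.2 to 683.6 alone, 521.8 to 754.7 with Nodal and 762.5 to 1094 with Cripto. The summed signal of the undetected fibroblast markers was 394.9 to 650.9 in Media, 424.4 to 758.1 with Nodal and 447.8 to 784.5 with Cripto. Eomes, Elf5 and Tfap2c were detected on 0 arrays. The part of these markers in the results for Nodal and Cripto was not tested.

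Socs3, whose product binds gp130 and JAK kinases and shuts off signalling, stood at 3 levels across the 6 groups. On the Media arrays its log2 levels were 9.39, 9.52, 9.30, 9.50 and 9.22, and with SB431542 they were 9.50, 9.57, 9.53, 9.57 and 9.31. Nodal with SB431542 gave 9.49, 9.46 and 9.43. These 3 groups overlapped, between 9.22 and 9.57, and were the low groups. The Cripto arrays read 10.62, 9.76, 10.20, 10.04 and 10.06, above all low arrays and below every array of the remaining groups. Nodal gave 11.31, 11.03, 11.02, 10.96 and 11.03, and Cripto with SB431542 gave 11.26, 11.00, 11.01, 10.95 and 10.94. These were the high groups and they overlapped. Group means with SD ran from 9.39 ± 0.13 in Media (n = 5), 9.46 ± 0.03 with Nodal and SB431542 (n = 3) and 9.50 ± 0.11 with SB431542 (n = 5) through 10.14 ± 0.32 with Cripto (n = 5) to 11.03 ± 0.13 with Cripto and SB431542 (n = 5) and 11.07 ± 0.14 with Nodal (n = 5).

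Nodal raised Socs3 by a fitted log2 change of 1.68 ± 0.12 (SE), or 3.21-fold (limma, adjusted p = 1.46e-10). The difference was positive on all 5 chips that held both groups, from 1.46 to 1.92. With SB431542 present, Nodal changed it by -0.09 ± 0.14 against the inhibitor alone, with a 95% interval of -0.38 to 0.20 (adjusted p = 0.74). The Nodal effect with the inhibitor was smaller by 1.78 ± 0.18 than without it, a difference that was tested directly (interaction -1.78, adjusted p = 1.69e-07). As a description, Cripto arrays lay 0.74 ± 0.12 above Media on the fitted scale (1.38 with the arrays scaled by median centring in place of quantile normalisation), and within chips 0.23 to 1.24 above. Arrays of Cripto with SB431542 lay 1.60 ± 0.12 above SB431542 and 0.97 ± 0.12 above Cripto alone, and within the 3 chips that held both of the latter groups 0.82 to 1.50 above. Nodal arrays lay 0.94 ± 0.12 above Cripto arrays. The value for Cripto with SB431542 against SB431542 was 2.07 with median centring and 1.45 with no background correction. It was 1.40 with the authors' deposited processed values and 1.73 with the brightness of the array as a covariate.

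**Figure D1:**
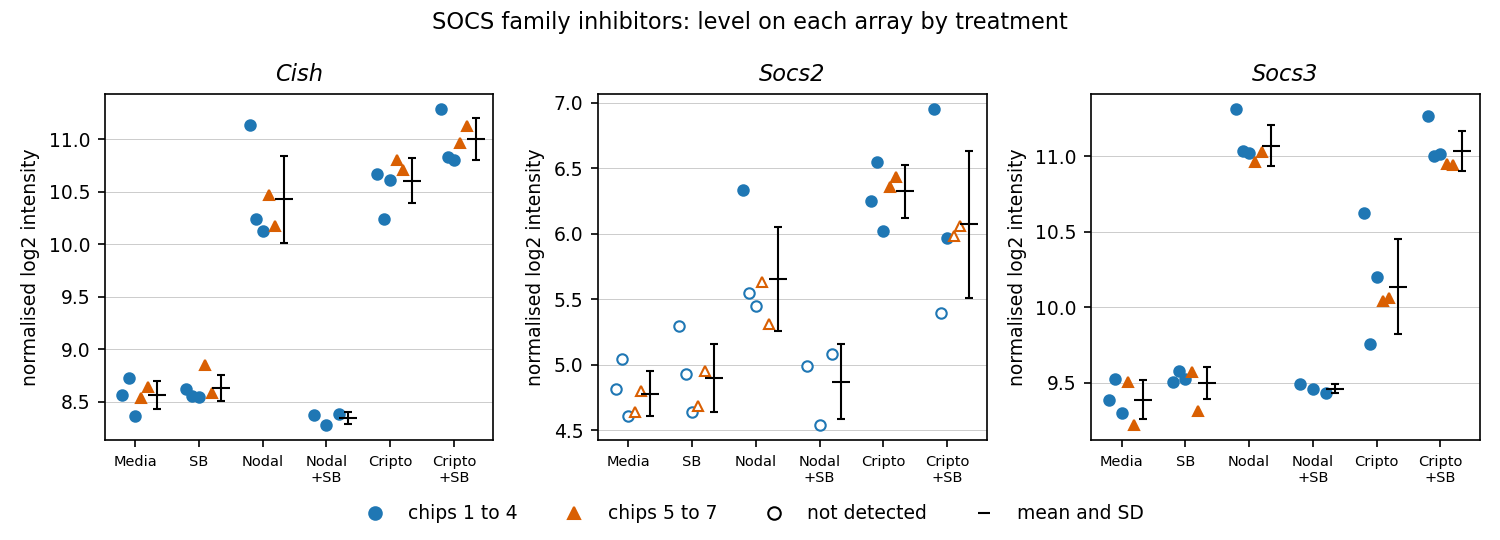
Normalised log2 intensity of Cish, Socs2 and Socs3 (vertical axes) on each of 28 arrays by treatment group. Points are arrays (circles on chips 1 to 4, triangles on chips 5 to 7, open where not detected), and bars give mean and SD. Socs3 on the Cripto arrays lies between 9.76 and 10.62, between the low and the high groups, while Cish on the Cripto arrays overlaps Nodal.

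Cish, a SOCS family protein best known as a target and inhibitor of STAT5 signalling, rose after both proteins. Media arrays read 8.56, 8.72, 8.36, 8.54 and 8.64. Nodal arrays read 11.13, 10.24, 10.13, 10.47 and 10.17, and Cripto arrays 10.67, 10.24, 10.61, 10.80 and 10.71. The Nodal and Cripto arrays overlapped each other and lay above every Media array. The log2 change was 1.86 ± 0.14 (SE) for Nodal (3.64-fold, adjusted p = 1.07e-09) and 2.02 ± 0.15 for Cripto (4.05-fold, adjusted p = 3.27e-10). Nodal against Cripto differed by -0.16 ± 0.15 with a 95% interval of -0.46 to 0.15 (adjusted p = 0.515). Without Nodal replicate 1, the highest of its group, that difference was -0.34 and was called (adjusted p = 0.0363).

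With the inhibitor present, Cish stood at different levels after Nodal and after Cripto. SB431542 alone gave 8.62, 8.55, 8.55, 8.85 and 8.58, and Nodal with SB431542 gave 8.37, 8.28 and 8.39. Cripto with SB431542 gave 11.29, 10.83, 10.81, 10.96 and 11.12, each above the highest Cripto array at 10.80. Against SB431542 alone, the change was -0.25 ± 0.17 for Nodal (adjusted p = 0.449) and 2.44 ± 0.15 for Cripto (5.43-fold, adjusted p = 2.65e-11). The interaction was -2.11 ± 0.23 for Nodal (adjusted p = 3.73e-07). For Cripto it was 0.42 ± 0.21, with a 95% interval of -0.02 to 0.86 (adjusted p = 0.367).

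Socs2, an inhibitor known from growth hormone signalling, was near background. It was detected on 0 of 5 Media, 0 of 5 SB431542, 0 of 3 Nodal with SB431542, 1 of 5 Nodal, 5 of 5 Cripto and 2 of 5 Cripto with SB431542 arrays. Its levels were 4.61 to 5.04 in Media, 5.31 to 6.33 with Nodal, 6.02 to 6.55 with Cripto and 5.40 to 6.95 with Cripto and SB431542. Every Nodal and Cripto array lay above every Media array. Socs2 passed the filter through 8 arrays, all with Nodal, with Cripto or with Cripto and SB431542, where it was high. Its p-values in comparisons with those groups are therefore not independent of the filter and are no separate support. The change after Cripto was called (adjusted p = 5.11e-07) and was at least 1.40-fold, the bound set by the lowest signal that counts as detected. The change of Cripto with SB431542 against SB431542 was called as well (adjusted p = 2.35e-05). Its size is uncertain, since Socs2 was detected on 2 of 5 arrays of Cripto with SB431542. Nodal raised the fitted value by 0.87 ± 0.18 (adjusted p = 0.000354), but no bound above 1 can be given, since Socs2 was below the detection limit on most arrays of both groups. Between Nodal and Cripto the fitted Socs2 value was lower with Nodal (-0.64, adjusted p = 0.0175), a difference whose size is uncertain because 4 of 5 Nodal arrays were not above background. That call was lost with no background correction (adjusted p = 0.0548), with the deposited processed values (0.0753), on chips 1 to 4 alone (0.374), and without Nodal replicate 2 (adjusted p = 0.0734), Nodal replicate 5 (0.0629), Cripto replicate 4 (0.0586) or Cripto replicate 5 (0.0653). A second Socs2 probe was detected on 0 arrays.

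Jak1, a kinase that gp130 complexes need, fell after Nodal and after Cripto, the largest change among the members. At its brighter probe, ILMN_1213278, Media arrays read 9.45, 9.53, 9.65, 9.82 and 9.76. Nodal arrays read 5.25, 6.38, 6.43, 7.17 and 7.04, and Cripto arrays 5.75, 5.95, 6.28, 6.72 and 6.87. Every Nodal and Cripto array lay below every Media array. The log2 change was -3.18 ± 0.18 after Nodal (9.09-fold lower, adjusted p = 4.6e-12) and -3.29 ± 0.18 after Cripto (9.80-fold lower, adjusted p = 3.12e-12). The probe was detected on 4 of 5 arrays in each of these groups, so the size depends on the background correction.

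Under SB431542 the Jak1 levels at ILMN_1213278 were 9.23, 9.57, 9.63, 9.92 and 9.68 with the inhibitor alone and 9.33, 9.66 and 9.52 with Nodal added. With Cripto added they were 6.14, 6.37, 5.78, 5.99 and 5.96, and 2 of those 5 arrays were detected. Nodal with SB431542 overlapped the inhibitor alone (change 0.06 ± 0.21, 95% interval -0.38 to 0.50, adjusted p = 0.909), whereas Cripto with SB431542 lay below it by -3.63 ± 0.18 (adjusted p = 1e-12). The interaction was 3.24 ± 0.27 for Nodal (adjusted p = 1.29e-08) and -0.34 ± 0.26 for Cripto (95% interval -0.87 to 0.20, adjusted p = 0.564).

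The other detected Jak1 probe, ILMN_2701093, gave the same directions at a smaller size and depended on the chips. Its log2 change was -0.79 ± 0.18 after Nodal (adjusted p = 0.000843), -0.62 ± 0.18 after Cripto (adjusted p = 0.0059) and -1.28 ± 0.19 for Cripto with SB431542 against SB431542 (adjusted p = 5.78e-06). In every group with arrays on both sets of chips, the arrays of chips 5 to 7 lay below those of chips 1 to 4, at 4.87 to 6.83 against 7.42 to 9.42. That shift of -2.65 was matched in size by 1.88% of the probes. With chips 1 to 4 alone the change after Cripto was -0.26 (adjusted p = 0.309), and with median centring it was -0.08 (adjusted p = 0.762). The call after Nodal was lost with median centring too (-0.32, adjusted p = 0.231) and with chip as a random block (adjusted p = 0.151). A remaining Jak1 probe was detected on 0 arrays.

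**Figure D2:**
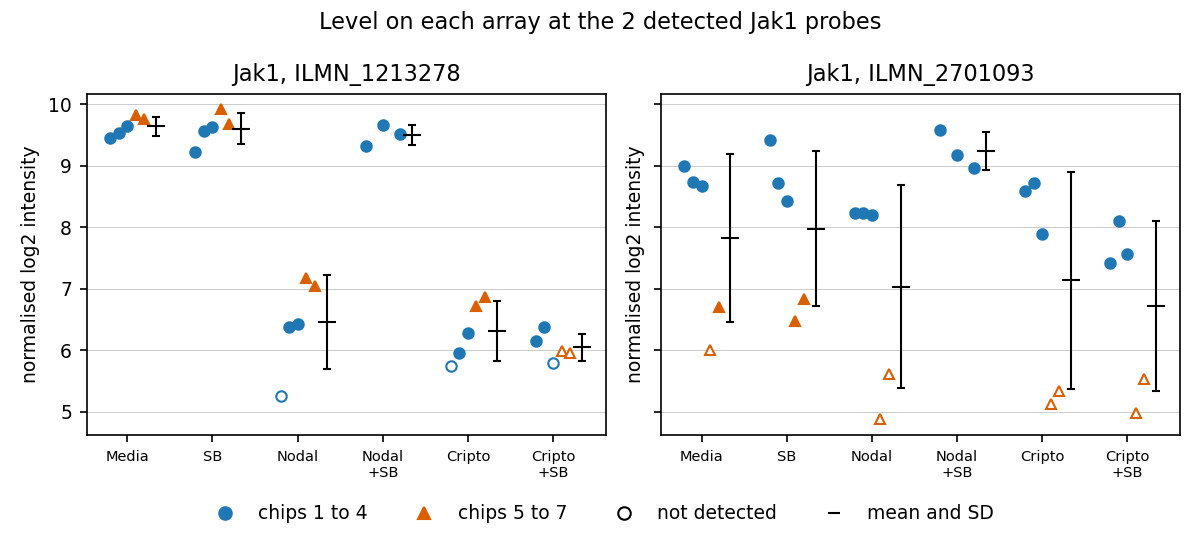
Normalised log2 intensity at the 2 detected Jak1 probes (vertical axis) on each array by treatment group. Circles are arrays of chips 1 to 4, triangles of chips 5 to 7, open points are not detected, and bars give mean and SD. At ILMN_1213278 the Nodal, Cripto and Cripto with SB431542 arrays sit below 7.2 on both sets of chips, while ILMN_2701093 is lower on chips 5 to 7 in each group that has arrays there.

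Jak2, the kinase of many single-chain cytokine receptors, rose after Nodal. At ILMN_1245579, Media arrays read 8.97, 8.98, 8.98, 9.31 and 9.63, and Nodal arrays 9.71, 9.82, 10.38, 10.33 and 10.26, with no overlap. Cripto arrays read 8.86, 10.14, 8.92, 9.13 and 8.95, so 1 lay within the Media range, 3 just below it and replicate 2 above it. The log2 change was 0.93 ± 0.22 after Nodal (adjusted p = 0.00105) and 0.03 ± 0.22 after Cripto (95% interval -0.43 to 0.49). With median centring Jak2 was called after Cripto as well, at 0.64 (adjusted p = 0.0453). Nodal exceeded Cripto by 0.90 ± 0.22 (adjusted p = 0.00622), which was lost on chips 1 to 4 alone (adjusted p = 0.258). The second detected probe, ILMN_3115162, gave 1.19 ± 0.24 after Nodal (adjusted p = 0.000313) and 0.39 ± 0.25 after Cripto (adjusted p = 0.184), the latter 0.88 with median centring (adjusted p = 0.0107). With the brightness of the array as a covariate, the Nodal change was 0.56 (adjusted p = 0.158) at the first probe and 0.87 (adjusted p = 0.0582) at the second. The remaining 2 Jak2 probes were detected on 0 arrays.

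Stat3, the main STAT factor downstream of gp130, was lower with Cripto at 2 of 3 probes with quantile normalisation, but not with median centring, and was not called after Nodal with quantile normalisation. At ILMN_2698046, Media arrays ranged from 11.07 to 11.57 with a median of 11.42. Nodal arrays ranged from 10.80 to 11.78 and Cripto arrays from 10.31 to 11.35, both overlapping Media. On each of the 4 chips that held Cripto and Media, the Cripto array was the lower, by -0.76 to -0.07. The fitted change after Cripto was -0.54 ± 0.11 at this probe (adjusted p = 0.000254), -0.50 ± 0.14 at ILMN_2589790 (adjusted p = 0.00465) and 0.01 ± 0.14 at ILMN_3096144 (adjusted p = 0.957). Direction depended on the scaling: with median centring the values were 0.04, 0.13 and 0.63, of which the last was called higher (adjusted p = 0.00421). With brightness as a covariate the first 2 were not called (adjusted p = 0.169 and 0.489). At ILMN_2698046 the change after Nodal was 0.05 (adjusted p = 0.741) and 0.63 with median centring (adjusted p = 0.000288). Nodal exceeded Cripto by 0.59 ± 0.11 (adjusted p = 0.000801), a difference that was 0.59 under median centring too and was lost on chips 5 to 7 alone (adjusted p = 0.0746). Arrays of Cripto with SB431542 read 11.59, 11.32, 11.36, 11.16 and 11.28, which was 0.50 ± 0.12 above Cripto alone on the fitted scale, as a description.

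Lifr, the LIF-specific receptor chain, was detected on all 28 arrays at each of its 3 probes. At ILMN_2829008, Media arrays ranged from 8.49 to 9.01, Nodal arrays from 8.0 to 8.97 and Cripto arrays from 8.73 to 9.54. Neighbouring groups in the order of means overlapped, while Nodal with SB431542, at 8.44 to 8.69, lay below the Cripto arrays. The change was 0.37 ± 0.12 after Cripto (1.29-fold, adjusted p = 0.00901) and -0.23 ± 0.11 after Nodal (adjusted p = 0.0923). With median centring these were 0.99 (adjusted p = 0.000123) and 0.38 (adjusted p = 0.0934), so the sign after Nodal depended on the scaling. At ILMN_1242960 and ILMN_2829015 the change after Cripto was 0.25 ± 0.13 (adjusted p = 0.0869) and 0.10 ± 0.12 (adjusted p = 0.481), neither of them called. With median centring both were called, at 0.82 (adjusted p = 0.00154) and 0.64 (adjusted p = 0.00371). Lifr was lower with Nodal than with Cripto at all 3 probes, by -0.60 ± 0.12 (adjusted p = 0.00101), -0.51 ± 0.13 (0.00684) and -0.41 ± 0.12 (0.0216), and within each of the 4 chips that held both groups. None of these 3 differences was called with median centring (adjusted p = 0.0502, 0.12 and 0.148), at nearly the same sizes. At ILMN_2829015 Nodal lowered the value by -0.31 ± 0.12 (adjusted p = 0.0349), which became 0.22 with median centring. The rise after Cripto at ILMN_2829008 was lost with brightness as a covariate (0.20, adjusted p = 0.384), with no chip term (0.0927) and on either set of chips alone (0.0901 and 0.0634).

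Il6st was dim. Its brighter probe was detected on 10 of 28 arrays and its other probe on 4. At ILMN_2608184, levels were 4.99 to 5.94 in Media, 5.26 to 6.19 with Nodal and 4.73 to 6.33 with Cripto, and all groups overlapped. The change was 0.26 ± 0.18 after Nodal (95% interval -0.12 to 0.64, adjusted p = 0.23) and 0.29 ± 0.19 after Cripto (95% interval -0.10 to 0.68, adjusted p = 0.18). Without Cripto replicate 4, a dim array for this probe, the latter was 0.46 and was called (adjusted p = 0.0353), as it was with median centring (0.48, adjusted p = 0.041). At the other probe, ILMN_2452075, the change was 0.05 ± 0.20 after Nodal (adjusted p = 0.854) and 0.08 ± 0.20 after Cripto (adjusted p = 0.743).

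**Figure D3:**
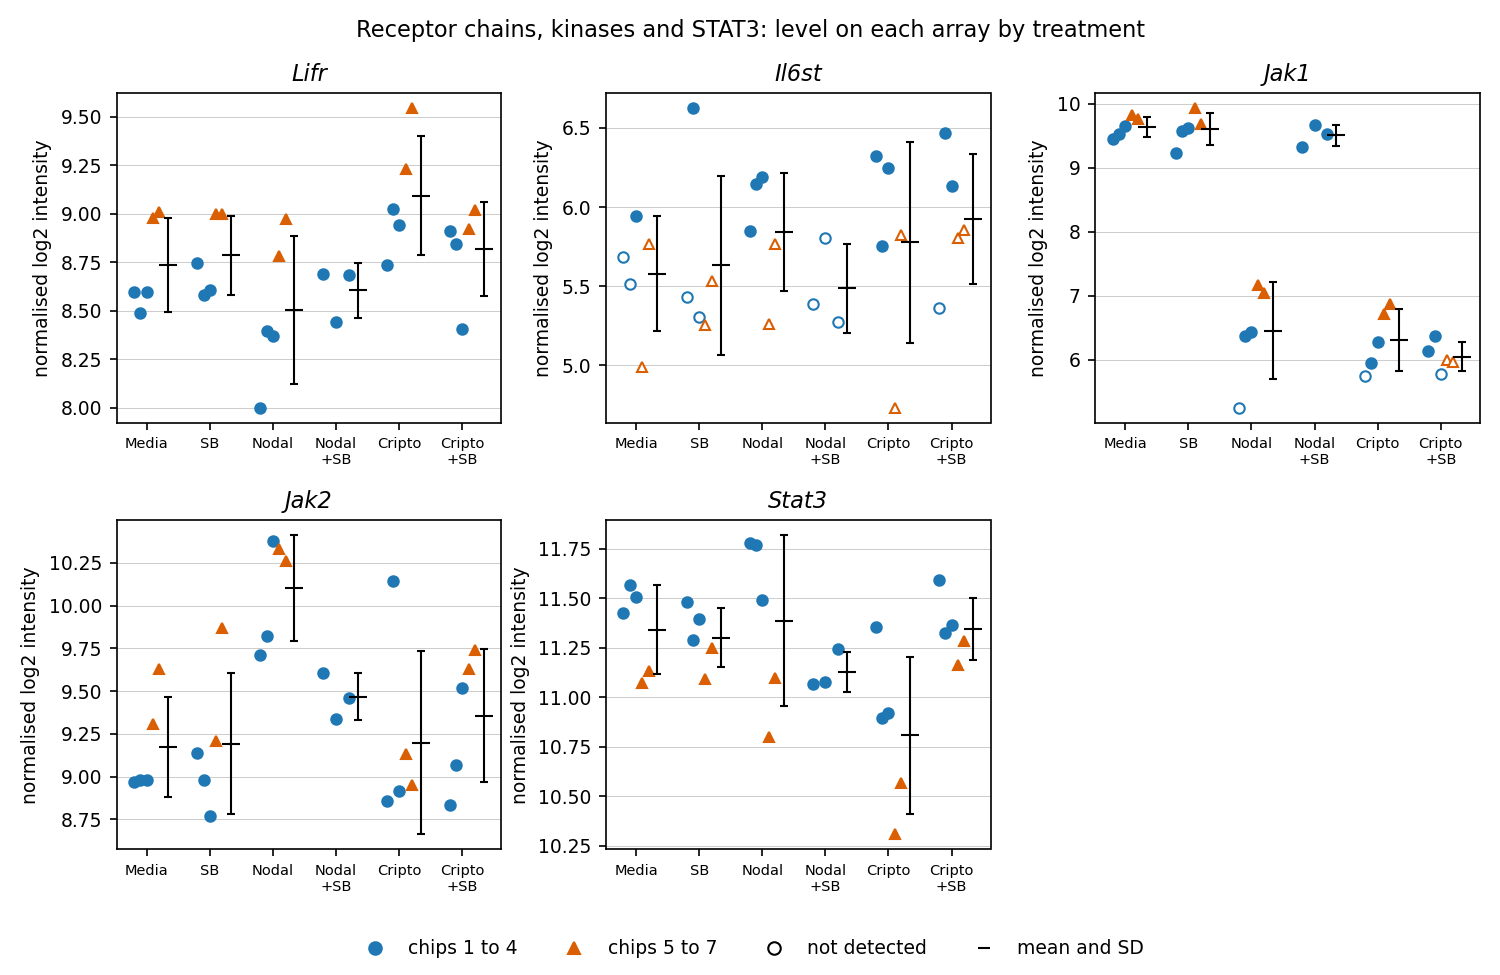
Normalised log2 intensity of Lifr, Il6st, Jak1, Jak2 and Stat3, each at its probe with the highest mean (vertical axes), on each array by treatment group. Points are arrays (circles on chips 1 to 4, triangles on chips 5 to 7, open where not detected), and bars give mean and SD. Jak1 falls into separate high and low groups, Jak2 is highest with Nodal at 9.71 to 10.38, and for the other 3 genes groups of neighbouring means overlap.

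Counted by gene, 5 of the 8 members were called after Nodal against Media. Cish, Socs3, Socs2 and Jak2 rose and Jak1 fell, where 28.2% of all 9951 genes rose and 28.5% fell. After Cripto against Media, 5 of the 7 members other than Socs3 were called, where 31.8% of all genes rose and 32.2% fell. Cish, Socs2 and Lifr were higher and Jak1 and Stat3 lower. Lifr was called at ILMN_2829008 but not at its other probes, and Stat3 was not called lower with median centring. With so large a share of genes called, these counts alone do not set the members apart. Socs2 passed the filter only through groups where it was high, so its calls here and below are not independent of the filter. For Cripto with SB431542 against SB431542, 3 of 7 were called, with Cish and Socs2 higher and Jak1 lower, beside 31.5% and 33.5% of all genes.

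The inhibitor by itself left no member called against Media in limma, and none had an unadjusted p below 0.05 either, where 0% of all genes were called and 606 of 18471 probes had an unadjusted p below 0.05. Nodal with SB431542 against SB431542 also had 0 of 8 members called, beside 3.46% of all genes, and 1 member, Stat3, had an unadjusted p below 0.05 (change -0.32 ± 0.13, adjusted p = 0.176). Array weights called 2 members there, Stat3 (-0.29) and Jak2 (0.46), and the share of all genes called under that setting is not given here. For these comparisons a missed threshold does not show that levels were alike.

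Set against Nodal alone, Nodal with SB431542 had 6 of 8 members called. Jak1 was higher, beside 25.6% of all genes, and Cish, Socs3, Socs2, Stat3 and Il6st were lower, beside 27.3%. The Il6st difference was called at ILMN_2608184 (-0.64 ± 0.23, adjusted p = 0.023). Its size is uncertain, since that probe was detected on 3 of 5 Nodal arrays and 0 of 3 with Nodal and SB431542. At the other probe, ILMN_2452075, the difference had the opposite sign (0.16 ± 0.25, adjusted p = 0.608). The call at ILMN_2608184 was lost under 6 of the other settings, such as no background correction (adjusted p = 0.0588). It was also lost without Nodal replicate 2 (adjusted p = 0.0525) or either of replicates 2 (0.0687) and 3 (0.0663) of Nodal with SB431542. The Socs2 difference was called (adjusted p = 0.0139), but no bound above 1 can be given for it, since Socs2 was detected on 0 of 3 and 1 of 5 of these arrays. It was lost with an offset of 50 (adjusted p = 0.0557), with the deposited processed values (0.0878), and without Nodal replicate 1 (0.0582) or replicate 1 (0.0915) or 2 (0.0713) of Nodal with SB431542. The Stat3 difference, -0.42 ± 0.13 (adjusted p = 0.0124), was lost without replicate 1 of Nodal with SB431542 (0.115) and with no chip term (0.336). Between Nodal and Cripto, 4 of 7 members were called, with Jak2 and Stat3 higher with Nodal, beside 12.7% of all genes, and Lifr and Socs2 lower, beside 10.4%.

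The interaction with the inhibitor was called for 4 of 8 members in the Nodal arms, Jak1, Cish, Socs3 and Socs2, beside 42.7% of all genes. In the Cripto arms it was called for 0 of 7 members in limma, beside 0.492% of all genes, and 2 members, Stat3 and Lifr, had an unadjusted p below 0.05. Stat3 showed 0.56 ± 0.16 there (adjusted p = 0.0997) and Lifr -0.39 ± 0.17 (adjusted p = 0.28). The comparisons with and without the inhibitor share no arrays, whereas Nodal and Cripto were both set against the same Media arrays.

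**Figure D4:**
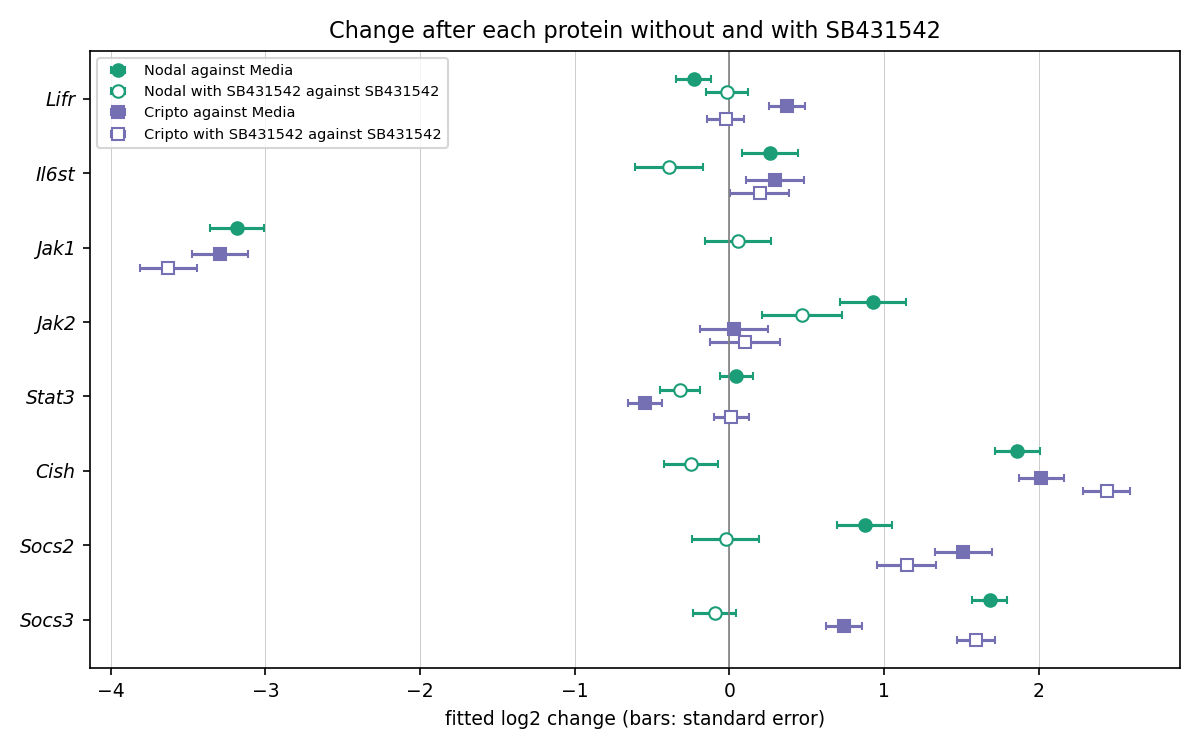
Fitted log2 change with its standard error (horizontal axis) of the 8 members, each at its probe with the highest mean, for Nodal (circles) and Cripto (squares) without SB431542 (filled) and with it (open). With the inhibitor the Nodal changes of Cish, Socs3 and Jak1 lie between -0.25 and 0.06, while those of Cripto lie at 2.44, 1.60 and -3.63. The points of Socs2 are fitted values near background.

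Genes whose levels followed a member most closely over the 28 arrays, with chip differences removed, were found by Pearson correlation as a description, since all arrays share the same treatments. For Socs3 these were Trim25 (r = 0.965), Fam83g (0.964), Itpkc (0.964), 4933412E12Rik (0.964) and Chrd (0.962). Chrd, which encodes the BMP antagonist chordin, averaged 6.40 in Media, 7.82 with Cripto, 8.38 with Cripto and SB431542 and 8.72 with Nodal. Trim25 averaged 10.66, 11.18, 11.51 and 11.44 in the same groups. Closest to Cish were Car12 (0.997) and Arhgap8 (0.992), to Jak1 Satb1 (0.993) and Cdh5 (0.993), to Socs2 Junb (0.941) and Col27a1 (0.940), and to Jak2 Msh6 (0.891) and Anxa4 (0.891). Closest to Stat3 were Fam160b1 (0.883) and Ilrun (0.870), to Lifr Zcchc17 (0.868) and Nqo1 (0.851), and to Il6st Blm (0.795) and Cwc22 (0.747).

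Other genes of the pathway were taken from lists of 87 genes, of which 55 had a probe past the filter. After Nodal 19 of the 55 rose, 17 fell and 19 were not called, with a median log2 change of 0.02, against 0.01 over all genes, of which 28.2% rose and 28.5% fell. After Cripto 20 rose, 18 fell and 17 were not called (median -0.06, against 0.01 over all genes, of which 31.8% rose and 32.2% fell). The same shares are the background for the groups of genes described below. With median centring the counts were 27 higher and 7 lower for Nodal and 21 higher and 7 lower for Cripto. Over all 18471 probes, median centring called 8898 higher and 2187 lower for Nodal, and 9049 higher and 2780 lower for Cripto. These probe counts are the background for the median-centred counts here and below, which alone do not set the pathway apart. Under SB431542, Cripto had 18 higher and 22 lower, beside 31.5% and 33.5% of all genes, while Nodal had 1 higher (Pik3r1, 0.82) and 1 lower (Ptpn1, -0.55), beside 3.46% in both directions together.

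Lif, the ligand of the LIF receptor, was detected on all 28 arrays and rose by 1.02 ± 0.17 after Nodal (adjusted p = 3.01e-05), by 1.15 ± 0.17 after Cripto (adjusted p = 6.37e-06) and by 1.67 ± 0.18 for Cripto with SB431542 against SB431542 (adjusted p = 6.15e-08). With Nodal and SB431542 its value was -0.04 ± 0.20 (adjusted p = 0.934), and the Nodal interaction was -1.06 ± 0.26 (adjusted p = 0.00282). Of the 4 ligand genes past the filter, Csf3, a granulocyte growth factor, was the other one called after Nodal, but it was detected on 2 of 5 Nodal and 0 of 5 Media arrays and no bound above 1 can be given. Il6, Il11 and Osm were below the filter.

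Among 7 other receptor chains, 1 rose and 3 fell after Nodal, and 1 rose and 4 fell after Cripto. Ghr, the growth hormone receptor, fell by 1.50 on the log2 scale after Cripto and showed 0.12 after Nodal, and Nodal exceeded Cripto by 1.62 ± 0.12 (adjusted p = 5.25e-08). The interferon receptor gene Ifngr2 fell after both (-0.79 and -0.77), and Il10rb, a chain shared by interleukin-10 family receptors, likewise (-0.64 and -1.03). Ifnar2 rose after Nodal by 0.72. With median centring 2 receptor chains rose and 0 fell after Nodal, and 1 rose and 1 fell after Cripto.

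Of 5 other JAK and STAT genes, 2 rose and 2 fell after Nodal. Jak3 (-1.11) and Stat2, the interferon-specific STAT (-1.10), fell, and Stat5a (0.66) and Tyk2 (0.44) rose. After Cripto, Stat2 (-1.31) and Jak3 (-1.04) fell and Stat5a (0.90) rose. The direction of these calls was the same with median centring.

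Of 11 other inhibitors, 4 rose and 3 fell after each protein, close to the shares of all genes (28.2% and 28.5% for Nodal, 31.8% and 32.2% for Cripto). Socs6 rose by 1.21 ± 0.22 after Nodal (adjusted p = 0.000104) and by 1.30 ± 0.23 after Cripto (adjusted p = 4.47e-05). Socs7 was higher after Cripto, but it was detected on 3 of 5 Cripto and 0 of 5 Media arrays, so the size of its rise is uncertain. Ptpn6, the phosphatase SHP-1, rose after Nodal (0.51), while Pias2 and Pias3, which repress STAT factors, fell (-0.67 and -0.66). After Cripto, Ptpn1 (-0.67) and Pias3 (-0.66) fell. With median centring 6 rose and 0 fell after Nodal, and 4 rose and 0 fell after Cripto. Among 3 subunits of the ubiquitin ligase that the SOCS box binds, Cul5 rose after both proteins (0.51 and 0.73).

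Of 6 adaptors that link gp130 to the MAPK and PI3K pathways, 4 fell after Nodal, and 4 fell and 2 rose after Cripto, while with median centring 2 rose and 2 fell after each. Gab1 fell after both (log2 change -1.58 and -1.59), as did Pik3r1, the regulatory subunit of PI3K (-1.18 and -1.32). Shc1 was at -0.45 and -0.51, which turned to 0.09 and 0.07 with median centring.

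Among 19 genes known as STAT3 targets, 9 were higher and 5 lower with Nodal (median log2 change 0.12), and 10 were higher and 5 lower with Cripto (median 0.54), where of all genes 28.2% were higher and 28.5% lower with Nodal and 31.8% and 32.2% with Cripto. With median centring the counts were 10 and 3 for Nodal and 10 and 2 for Cripto. Bcl6, a transcriptional repressor, was called lower after Nodal (fitted value -2.72, adjusted p = 4.18e-08) and after Cripto (-3.30, adjusted p = 2.23e-09), but it was detected on 1 of 5 arrays in each, so the size depends on the background correction. Tfcp2l1, a self-renewal factor of embryonic stem cells, rose by 2.15 ± 0.14 and 1.97 ± 0.14. Sgk1, a survival kinase, rose by 1.92 after Nodal, and Myc was at least 1.91-fold higher, detected on 5 of 5 Nodal and 0 of 5 Media arrays. After Cripto, the anti-apoptotic gene Bcl2l1 rose by 1.98 ± 0.12, and the adhesion molecule gene Icam1 was called higher (fitted value 2.43, adjusted p = 2.86e-08). Icam1 was detected on 5 of 5 Cripto and 1 of 5 Media arrays, so the size of its rise is uncertain. Both differed between the proteins, with Nodal lower than Cripto by -1.41 ± 0.24 for Icam1 (adjusted p = 0.000344) and -0.60 ± 0.12 for Bcl2l1 (adjusted p = 0.00101). Many of these targets answer to other pathways as well.

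**Figure D5:**
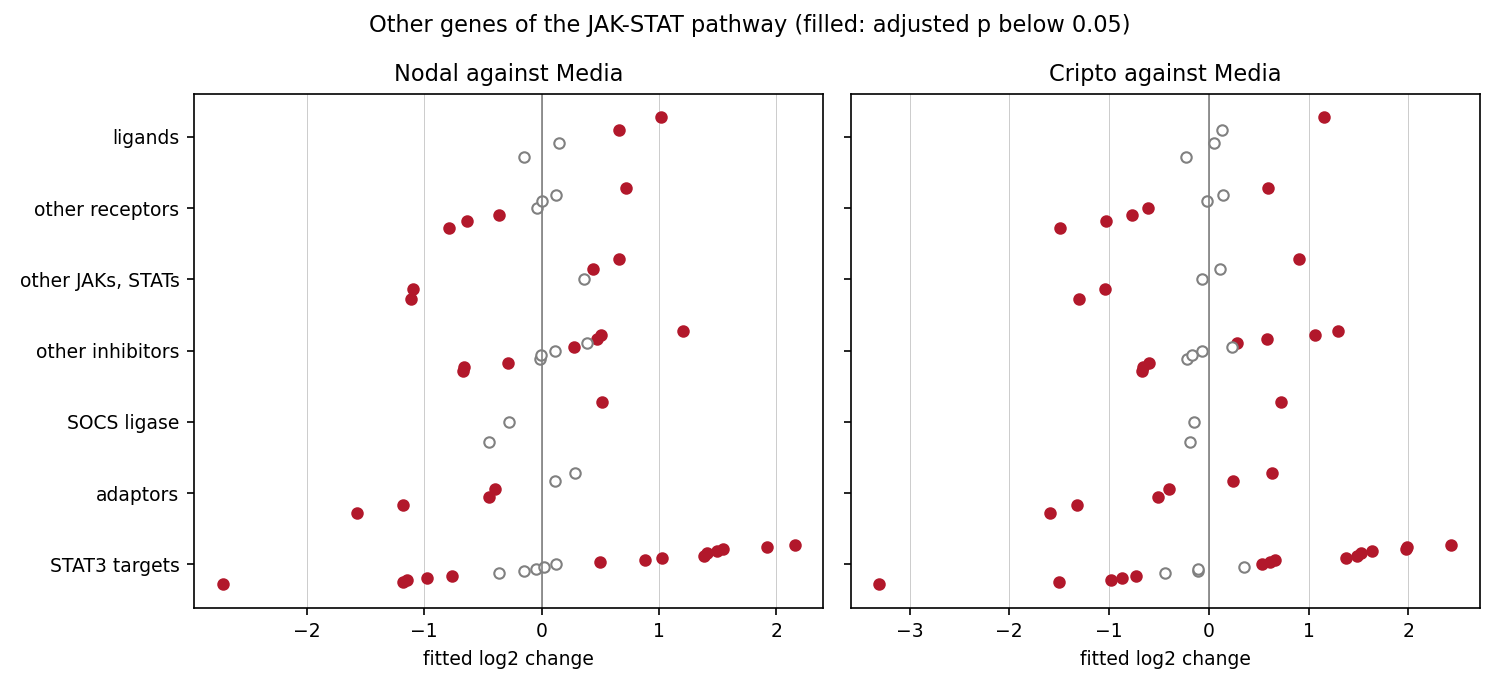
Fitted log2 change (horizontal axes) of 55 other genes of the JAK-STAT pathway, grouped by role, after Nodal (left) and after Cripto (right) against Media. Each point is a gene and filled points have an adjusted p below 0.05. Rises and falls occur together in most groups, from -2.72 (Bcl6) to 2.15 (Tfcp2l1) after Nodal.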

How the data were processed

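RNA from 28 samples of Xen-eyfp cells was profiled on Illumina MouseWG-6 v2 BeadChips (200 ng total RNA, biotin label). Per the file headers, the deposited per-array values are a bead-averaged signal, a linear intensity with no scaling between arrays, and a detection p-value per probe. A table of the authors' processed values, also deposited, has the range of log2 intensities, and its transformation is not given in the sources used here. BeadStudio and lumi are named per the submitters' processing notes. From the intensities, limma (version 3.58.1, R 4.3.3, files read by the data.table package at 1.17.8) computed normexp background correction from the detection p-values with an offset of 16, quantile normalisation and log2 values. Of 45281 probes, 18471 with a detection p below 0.01 on at least 3 arrays were kept. Symbols came from the platform annotation, with 34885 probes at 1 symbol, 18 at several and 10378 at none, updated through RefSeq names. All 28 arrays were fitted with group and BeadChip as fixed terms and eBayes (16 residual degrees of freedom), two-sided, with Benjamini-Hochberg adjustment over all kept probes. The number of arrays limits the precision. Where a probe was detected on no array of a group and on every array of the other, the fold is a bound against the lowest detected signal. No bound is given where it is under 1 or where some arrays of the brighter group were not detected. The fit was tested on simulated data. No p is given for Socs3 on Cripto or Cripto with SB431542 arrays, nor for any member between those groups. The members, lists and tests were chosen with earlier results of these data known. The text covers every member probe past the filter, and up to 4 called genes of largest change per list and comparison. It also names the genes that correlate best with each member (5 for Socs3, 2 for the others). Other genes are named only as background or exceptions chosen after their values were seen. Alternatives covered the background correction, offset, filter, scaling, chip term, array weights, brightness, the deposited processed values, 1 probe per gene and leaving out each array. Figures used matplotlib 3.10.9.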

Additional observations from a re-analysis of the deposited data

Results flagged for a closer look

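The effect of Nodal differed with and without SB431542, by a test of the interaction in limma, at 6 of the 15 member probes past the filter. Over all 18471 probes, the interaction was called positive at 3723 and negative at 4032, so this count alone does not set the members apart. At the 6 member probes the differences in log2 change were 3.24 (adjusted p = 1.29e-08) and 1.05 (adjusted p = 0.00515, and 0.0945 with median centring) for Jak1, -2.11 for Cish and -1.78 for Socs3. They were -0.897 for Socs2 and -0.547 for Stat3 at ILMN_3096144 (adjusted p = 0.0453). Socs2 was detected on 1 array of the 4 groups in this test, so the size of its value is uncertain. All 3 arrays of Nodal with SB431542 lay on chips 1 to 4.

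The groups of 5 arrays examined per probe were the 54 in which the probe was detected on all 5. In 8 of the 54, 1 array lay far from the others of its group, where chance nominally marks about 1 in 20. The rate over all probes is not given here, so this count does not set the members apart. For Socs3 the arrays marked were Nodal replicate 1 at 11.3, SB431542 replicate 5 at 9.31 and Cripto with SB431542 replicate 1 at 11.3. For Stat3 at ILMN_2589790 they were Nodal replicate 3 at 10.5 and Cripto replicate 2 at 9.37. Jak2 read 10.1 in Cripto replicate 2, Lifr at ILMN_1242960 read 7.39 in Nodal replicate 1, and Cish read 8.85 in SB431542 replicate 4. Within their groups, Socs3 in Nodal replicate 1 and Cish in Nodal replicate 1 were both the highest arrays.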

How the results depend on the processing

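Of 2598 values recomputed for the members under all alternatives, 2457 kept their call or, where no test was made, moved by less than the SD. Of those, 2312 kept their sign and 145, none of them called, turned it. The number of members called ranged over the arrays left out in turn from 5 to 5 for Nodal against Media, 5 to 6 for Cripto against Media, 0 to 0 for SB431542 against Media and for Nodal with SB431542 against SB431542, 3 to 3 for Cripto with SB431542 against SB431542, 4 to 7 for Nodal with SB431542 against Nodal and 3 to 5 for Nodal against Cripto. With brightness as a covariate, 3 members were called for Cripto against Media in place of 5, and with array weights 2 in place of 0 for Nodal with SB431542 against SB431542. On chips 1 to 4 alone and on chips 5 to 7 alone, where fewer arrays were fitted, 2 and 2 were called for Nodal against Cripto in place of 4. The shares of all genes called under these settings are not given here. Median centring turned Stat3 after Cripto to 0.0433 at ILMN_2698046 and 0.129 at ILMN_2589790, and Lifr at ILMN_2829015 after Nodal to 0.215. It moved the descriptive Socs3 value for Cripto against Media from 0.743 to 1.38. For Cripto with SB431542 against SB431542 it moved that value from 1.60 to 2.07. The cause was not tested. Median centring moved the median change of all probes by 0.389 for Nodal and 0.388 for Cripto against Media, by 0.282 for Cripto with SB431542 against SB431542, by 0.14 for Nodal with SB431542 against SB431542 and by -0.265 for Nodal with SB431542 against Nodal. The share of called probes that were higher went from 51.4% to 80.3% after Nodal, from 52.1% to 76.5% after Cripto, from 51.2% to 69.2% for Cripto with SB431542 against SB431542, from 81.8% to 99.3% for Nodal with SB431542 against SB431542 and from 47.3% to 28.5% for Nodal with SB431542 against Nodal. The signal over background limits Socs2 and Il6st, which were detected on few arrays, and the low side of Jak1. At ILMN_1213278, Jak1 was detected on 4 of 5 arrays with Nodal, 4 of 5 with Cripto and 2 of 5 with Cripto and SB431542. Pairing was through the shared chip, which was a term in the fit. By replicate number, no paired analysis was possible because the labels carry none, and the numbers used here only name arrays.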
